A study of Mus musculus with 4 samples.

Results

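The 38 genes described here encode the contractile, structural, calcium-handling and energy proteins of skeletal muscle fibres. They were taken as a list of names, drawn up with earlier results of these data known, and 37 of the 38 had at least 1 probe set annotated to that gene alone, among 18193 genes on the array. Xirp2, which encodes an actin-binding protein of muscle, had none, so no expression value is given for it. By fibre type, 14 are genes of fast fibres, 6 of slow fibres and 18 are shared by both. Gene expression was measured in mouse endometriotic lesions, which are ectopic growths of the lining of the uterus, on 4 Affymetrix arrays. Of these, 2 came from mice on a casein diet, which the labels give as the control, and 2 from mice on a high-fat diet. The series title calls the mice immunocompetent. Strain, age, genotype, the site of the lesion and the number of animals behind an array are not given in the labels. The brightest probe set stands for each gene, and values are probe set intensities on a linear scale.

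Skeletal muscle fibres contract through sarcomeres, in which thick filaments of myosin pull on thin filaments of actin that are anchored at the Z disc. Troponin on the thin filament responds to calcium released from the sarcoplasmic reticulum, and titin and nebulin act as molecular rulers of the filaments. Fast fibres, which fatigue readily, and slow fibres, which rely on oxidative metabolism, use different genes for myosin, troponin and myosin-binding protein. Skeletal muscle is not a component of the uterine lining, and the muscle of the uterine wall is smooth muscle.

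The muscle fibre genes were high in 1 lesion array and low in the other 3. All 37 measured genes were highest in high-fat diet replicate 1, by 1.22 to 7.13 log2 units over the highest of the other arrays. No detection call was used, and only 20, 19 and 21 of the 37 genes reached 33.9, the intensity below which genes were not tested, in casein replicate 1, casein replicate 2 and high-fat replicate 2. The size of a margin over such dim values therefore has no firm scale. The median margin was 3.86 log2, or 14.5-fold, where the median over all 18193 genes was -0.13. The median intensity of the 37 genes was 35.1 and 35.4 on the casein diet, 631.3 in high-fat replicate 1 and 39.9 in high-fat replicate 2. The second high-fat array thus lay with the casein diet arrays for most of these genes, and for 33 of the 37 the 3 remaining arrays differed from one another by less than 1 log2. In bulk tissue, more cells of a type and more RNA per cell cannot be told apart. It was seen in 1 array, so it has no replicate.

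A margin of 1 log2 or more in high-fat replicate 1 was reached by 37 of 37 muscle fibre genes, against 0.770% of all 18193 genes (140). Because of how the list was drawn up, this share is a description. None of the 37 reached such a margin in any other array. An intensity filter (a mean of 33.9, the 40th percentile of all probe sets) left 12797 genes. Of these, 280 had such a margin in casein replicate 1, 14 in casein replicate 2 and 60 in high-fat replicate 2. In high-fat replicate 1, 0.602% (77) had it, and 30 of these 77 were muscle fibre genes. Among these filtered genes the 10 with the largest margins were all on the list, as were 17 of the 20 largest. Of the 37 genes, 30 passed the filter, and 21 would have passed it on the 3 other arrays alone, so the count among filtered genes is partly set by the high array itself. The genes that did not pass it were Myh2, Myl2, Tnni1, Tmod4, Myoz1, Myot and Smpx.

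**Figure D1:**
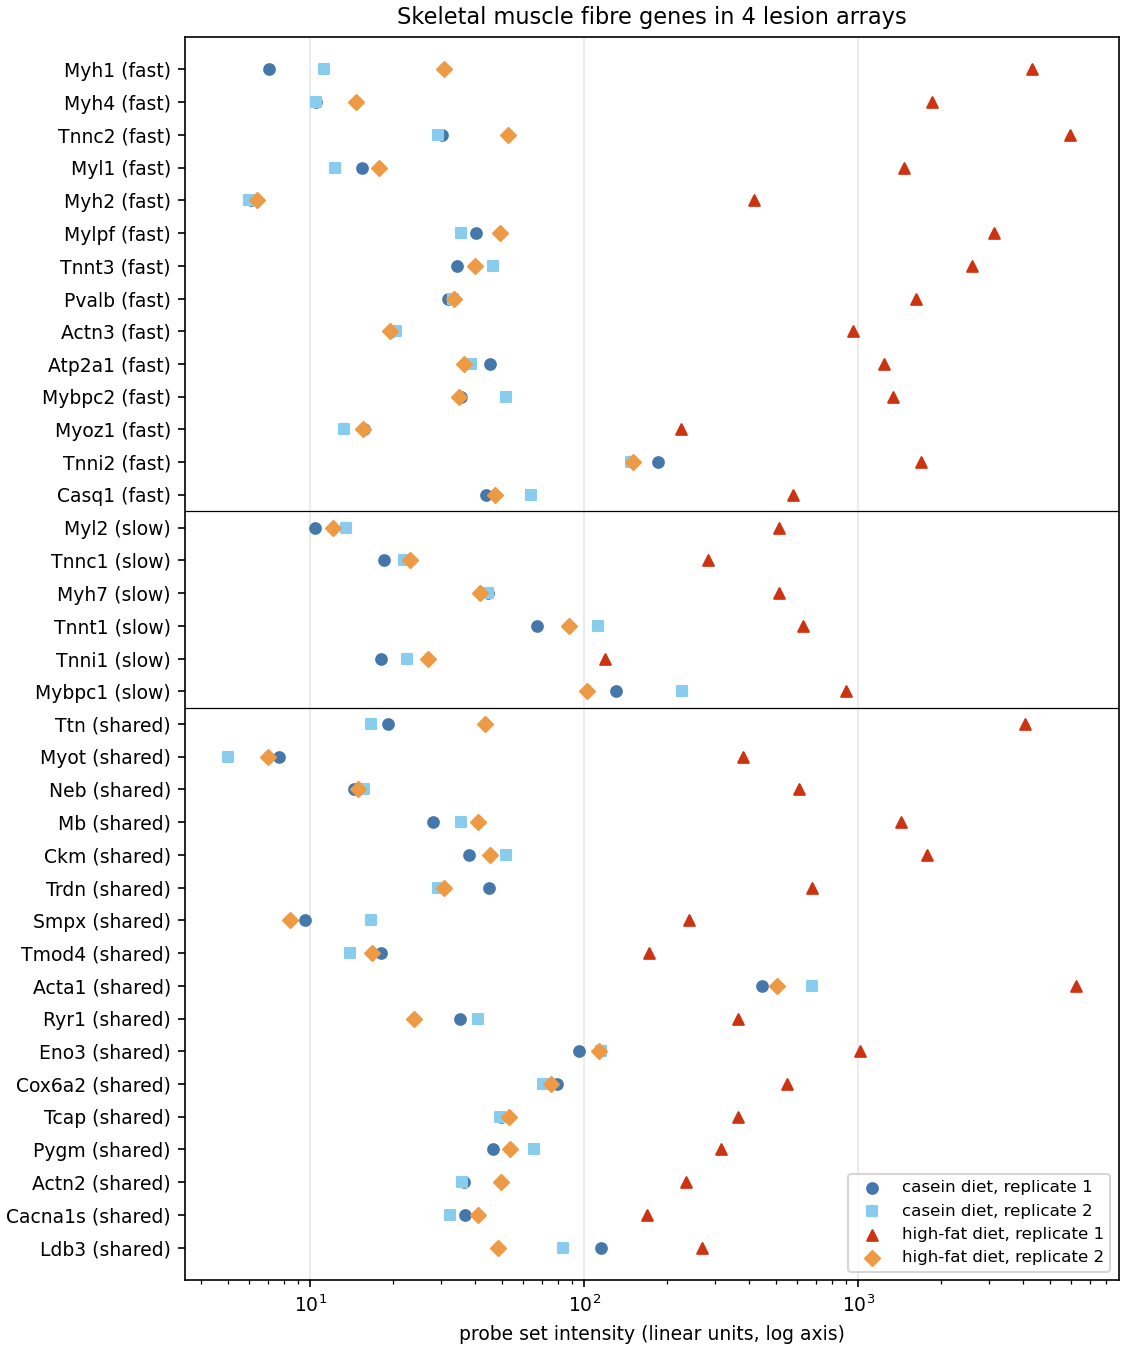
Probe set intensity of the 37 muscle fibre genes (horizontal log axis, linear units) in each of the 4 lesion arrays, 1 row per gene, grouped as fast, slow and shared. High-fat diet replicate 1 (triangles) is the highest array in every row, from 119.3 for Tnni1 to 6254 for Acta1, and the 3 other arrays lie together for most genes.

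The myosin motor genes of fast fibres were among those with the largest margins. Myh1, the fast myosin heavy chain of type IIx fibres, measured 7.07 and 11.2 on the casein diet, 4311 in high-fat replicate 1 and 30.8 in high-fat replicate 2. All 3 lower values were under 33.9, so no fold is given. Myh1 was also the gene for which high-fat replicate 2 stood farthest above the casein diet. Myh4, the heavy chain of the fastest fibre type, IIb, measured 10.5 and 10.5 on the casein diet, 1864 in high-fat replicate 1 and 14.7 in high-fat replicate 2. For Myh2, the heavy chain of type IIa fibres, the values were 6.10 and 5.99 on the casein diet, 416.2 in high-fat replicate 1 and 6.40 in high-fat replicate 2, so 3 arrays stood at about 6. The slow and cardiac heavy chain gene Myh7 had 44.4 and 44.5 on the casein diet, 513.1 in high-fat replicate 1 and 41.9 in high-fat replicate 2, a margin of 3.53 log2. All 4 heavy chain genes therefore had the same high array, and the 3 fast ones exceeded the slow one in margin.

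The sequences upstream of the 4 genes with the largest margins and of Acta1, the skeletal actin gene, are shown. These genes were high together in the same array, and the motifs below, apart from the TATA box, are textbook elements of muscle promoters. Each run holds the 250 bases before the start of the gene in RefSeq's GRCm38.p6 annotation, read 5′ to 3′ on the gene's strand, with matches to the MEF2 box, the CArG box and the TATA box (TATAAA) in capitals.
Myh4 (chr11:67237562-67237811, plus strand): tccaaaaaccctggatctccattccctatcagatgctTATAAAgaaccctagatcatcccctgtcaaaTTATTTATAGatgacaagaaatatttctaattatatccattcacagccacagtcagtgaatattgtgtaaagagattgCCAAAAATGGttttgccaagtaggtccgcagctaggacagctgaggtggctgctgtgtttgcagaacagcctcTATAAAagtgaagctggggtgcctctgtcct
Myh1 (chr11:67199852-67200101, plus strand): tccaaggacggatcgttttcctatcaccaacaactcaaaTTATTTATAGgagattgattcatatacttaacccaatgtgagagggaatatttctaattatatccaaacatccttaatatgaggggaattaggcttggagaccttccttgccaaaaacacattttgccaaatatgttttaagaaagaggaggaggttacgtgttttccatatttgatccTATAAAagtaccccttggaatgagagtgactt
Tnnc2 (chr2:164779735-164779984, minus strand): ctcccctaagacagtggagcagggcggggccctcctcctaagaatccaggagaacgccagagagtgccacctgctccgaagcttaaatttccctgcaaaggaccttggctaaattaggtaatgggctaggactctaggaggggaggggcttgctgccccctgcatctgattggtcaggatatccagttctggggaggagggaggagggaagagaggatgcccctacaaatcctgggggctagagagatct
Ttn (chr2:76982548-76982797, minus strand): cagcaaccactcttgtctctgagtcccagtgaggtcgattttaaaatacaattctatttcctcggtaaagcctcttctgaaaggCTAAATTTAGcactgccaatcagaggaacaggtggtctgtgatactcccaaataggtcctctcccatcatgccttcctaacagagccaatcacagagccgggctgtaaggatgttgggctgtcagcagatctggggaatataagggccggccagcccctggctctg
Acta1 (chr8:123894776-123895025, minus strand): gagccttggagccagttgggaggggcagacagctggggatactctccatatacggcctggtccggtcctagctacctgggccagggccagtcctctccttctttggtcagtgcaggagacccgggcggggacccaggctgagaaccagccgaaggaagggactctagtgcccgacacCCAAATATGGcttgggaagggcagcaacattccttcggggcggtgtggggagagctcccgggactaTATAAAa
Myh4 and Myh1, which neighbour each other on chromosome 11 with Myh2, held the same run of bases as a MEF2 box match, TTATTTATAG, at 182 to 173 and 211 to 202 bases before the start. The match in Ttn, CTAAATTTAG, lay 166 to 157 bases before the start. A CArG box match was found in Myh4 (CCAAAAATGG, 104 to 95 bases before the start) and Acta1 (CCAAATATGG, 73 to 64 bases), and in none of the others shown. Tnnc2 had no MEF2, CArG or TATA box match in this run, and its window matched the E-box only of the 5 motifs searched.

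RefSeq windows of 300 bases, 250 before to 50 after a gene start, were found for 29 of the 38 genes (36 windows, since some genes have several starts). A MEF2 box was matched in 5 of the 36 windows, or 13.9%, against 3.19% of all 32851 windows, in Myh1, Myh4, Pvalb, Ttn and Xirp2. The CArG box, bound by serum response factor, was matched in 4 windows of 3 genes (Acta1, Ldb3 and Myh4), 11.1% against 1.63%. The MCAT element CATTCC was matched in 27.8% of the windows against 14.7%, and the TATA box on the gene's strand in 13.9% against 8.32%. The E-box CANNTG, the core of MyoD-family sites, was matched in 80.6% against 72.3% of all windows. Apart from the TATA box, both strands were searched, and 0 matches of different motifs overlapped in these windows. These are letter matches only, and windows of 1 gene share sequence.

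Myosin light chain and myosin-binding genes followed the heavy chains. Mylpf, the regulatory light chain of fast muscle, had 40.3 and 35.7 on the casein diet, 3129 in high-fat replicate 1 and 49.4 in high-fat replicate 2, and Myl1, the essential light chain of fast fibres, had 1475 in high-fat replicate 1 against 15.5, 12.3 and 17.8 in casein replicates 1 and 2 and high-fat replicate 2. Myl2, the regulatory light chain of slow and ventricular muscle, reached 514.7 in high-fat replicate 1 against 10.4, 13.5 and 12.1. Of the slow fibre genes Myl2 had the largest margin, 5.25 log2. The myosin-binding proteins C brace the thick filament. The fast form Mybpc2 measured 1335 in high-fat replicate 1 against 35.6, 51.7 and 34.8, and the slow form Mybpc1 905.9 in high-fat replicate 1 against 130.6, 228.2 and 102.4. Mybpc1 had the smallest margin of the slow genes (1.99 log2), and its high-fat replicate 2 value was the lowest of the 4 arrays.

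Thin filament genes were also highest in high-fat replicate 1. Acta1, skeletal muscle alpha-actin, had 446.1 and 678.8 on the casein diet, 6254 in high-fat replicate 1 and 507.6 in high-fat replicate 2, so its lower arrays were well above 33.9. Tnnc2, the calcium-binding subunit of fast troponin, had 30.2 and 29.2 on the casein diet, 5907 in high-fat replicate 1 and 52.8 in high-fat replicate 2, a margin of 111.9-fold. Tnnt3, the tropomyosin-binding subunit of fast troponin, had 34.2 and 46.3 on the casein diet, 2598 in high-fat replicate 1 and 39.9 in high-fat replicate 2. The inhibitory subunit of fast troponin, Tnni2, was already at 185.5 and 148.2 on the casein diet and at 151.1 in high-fat replicate 2, and stood at 1698 in high-fat replicate 1. The 3 slow troponin genes were also highest in that array. Tnnc1, the slow and cardiac calcium-binding subunit, had 284.0 in high-fat replicate 1 against 18.7, 21.9 and 23.2. Tnni1, the slow inhibitory subunit, had 119.3 in high-fat replicate 1 against 18.2, 22.5 and 26.9. Tnnt1, the slow tropomyosin-binding subunit, had 631.3 in high-fat replicate 1 against 67.2, 112.6 and 87.9. Neb, which encodes nebulin, measured 609.5 in high-fat replicate 1 against 14.4, 15.7 and 15.0, and Tmod4, which caps the pointed ends of thin filaments, 173.1 in high-fat replicate 1 against 18.2, 14.0 and 16.8.

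Genes of titin and the Z disc had margins from 1.22 to 6.54 log2. Ttn, the gene of titin, had 19.2 and 16.7 on the casein diet, 4053 in high-fat replicate 1 and 43.6 in high-fat replicate 2, a margin of 92.9-fold, and it was the only shared gene among the 6 largest margins. Myot, the gene of the Z-disc protein myotilin, had 378.6 in high-fat replicate 1 against 7.71, 5.01 and 7.02. Actn3, the alpha-actinin of fast fibres, had 19.96 and 20.6 on the casein diet, 957.3 in high-fat replicate 1 and 19.5 in high-fat replicate 2, and Actn2, the alpha-actinin of all striated fibres, 36.5 and 35.8 on the casein diet, 235.2 in high-fat replicate 1 and 49.9 in high-fat replicate 2. Both alpha-actinin genes had 3 low arrays and 1 high one, with the larger margin in the fast form. Myoz1, a calcineurin-binding Z-disc gene of fast fibres, had 225.1 in high-fat replicate 1 against 15.7, 13.3 and 15.6, and Tcap, the gene of the titin cap telethonin, 363.3 in high-fat replicate 1 against 49.8, 49.2 and 53.0. Smpx, a small cytoskeletal muscle gene, had 241.2 in high-fat replicate 1 against 9.62, 16.7 and 8.46. Ldb3, a PDZ-LIM gene of the Z disc that is also known from heart, had the smallest margin of all, with 115.6 and 83.9 on the casein diet, 270.1 in high-fat replicate 1 and 48.4 in high-fat replicate 2.

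Genes of calcium release and uptake were high in the same array. Atp2a1, the calcium pump of the fast-fibre sarcoplasmic reticulum, had 45.3 and 38.7 on the casein diet, 1238 in high-fat replicate 1 and 36.6 in high-fat replicate 2. Pvalb, the gene of the cytosolic calcium buffer parvalbumin, had 31.8 and 33.2 on the casein diet, 1619.5 in high-fat replicate 1 and 33.5 in high-fat replicate 2, and its 3 low arrays lay within 0.07 log2 of one another. Casq1, the gene of the calcium store protein calsequestrin, reached 580.8 in high-fat replicate 1 against 43.9, 63.9 and 47.2. The release channel gene Ryr1 had 363.4 in high-fat replicate 1 against 35.1, 40.9 and 23.9, and its partner Trdn, triadin, 675.8 in high-fat replicate 1 against 44.9, 29.3 and 30.8. Cacna1s, the voltage sensor of excitation-contraction coupling, had 170.3 in high-fat replicate 1 against 36.8, 32.4 and 41.0. Its margin, 2.05 log2, was the smallest of the 6 calcium-handling genes and that of Pvalb, 5.60, the largest.

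Among genes of energy and oxygen supply, Ckm, the muscle creatine kinase that regenerates ATP, had 38.0 and 51.9 on the casein diet, 1784 in high-fat replicate 1 and 45.4 in high-fat replicate 2. Mb, the gene of the oxygen-binding protein myoglobin, had 28.2 and 35.4 on the casein diet, 1432 in high-fat replicate 1 and 41.2 in high-fat replicate 2. These 2 had margins of 34.4-fold and 34.8-fold, above the others of this group. Eno3, the muscle enolase, measured 1016 in high-fat replicate 1 against 96.1, 115.6 and 113.4, and Cox6a2, a cytochrome oxidase subunit of striated muscle, 551.5 in high-fat replicate 1 against 79.8, 70.9 and 75.9. Pygm, the muscle glycogen phosphorylase, had 316.8 in high-fat replicate 1 against 46.4, 65.4 and 53.5. For Eno3 and Cox6a2 the 3 lower arrays kept to a narrow band, within 0.27 and 0.17 log2.

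By fibre class, the median margin was larger for fast genes than for slow or shared genes. The median margin was 5.70 log2 (52.1-fold) for 14 fast genes, 3.01 (8.04-fold) for 6 slow genes and 3.20 (9.21-fold) for 17 shared genes. A margin of at least 4 log2 was seen in 11 of the 14 fast genes, 1 of the 6 slow genes (Myl2) and 5 of the 17 shared genes. The ranges overlapped, from 3.18 to 7.13 for fast, 1.99 to 5.25 for slow and 1.22 to 6.54 for shared genes. Median intensities in casein replicate 1, casein replicate 2 and high-fat replicate 2 were 31.0, 31.1 and 34.1 for fast genes, and 28.8, 31.7 and 33.6 for slow genes. These lie near or below 33.9, the intensity below which genes were not tested, so the sizes of the class margins have no firm scale. In high-fat replicate 1 the medians were 1545 and 513.9. Probe sets of different genes differ in background and response, so these levels are not compared between classes. For the same reason a margin compares arrays within a gene and gives no share of fast and slow fibres. These class differences come from 1 array and were not tested.

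**Figure D2:**
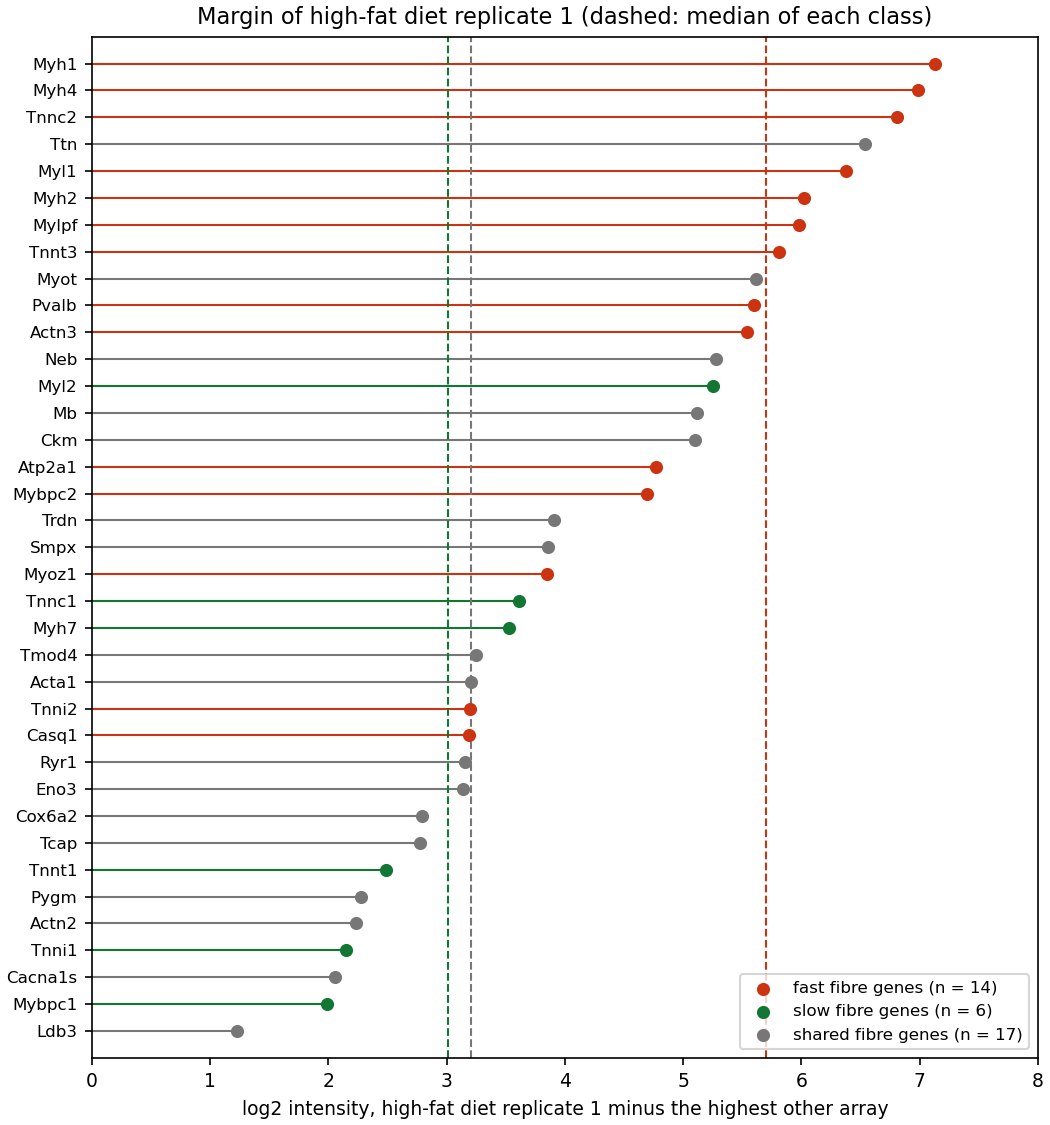
Margin of high-fat diet replicate 1 over the highest of the 3 other arrays (horizontal axis, log2 intensity) for the 37 muscle fibre genes, coloured by fibre class, with dashed lines at the class medians. Fast genes fill most of the top rows, and the median of the fast class (5.70) lies to the right of those of the slow (3.01) and shared (3.20) classes.

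Where a fast and a slow gene encode the same part of the sarcomere, the fast one had the larger margin in all 8 pairs examined, by 0.73 to 3.60 log2, with Myh7 standing in 3 of these pairs. The difference was 3.19 between Tnnc2 and Tnnc1, and 3.32 between Tnnt3 and Tnnt1. The fast alpha-actinin Actn3 exceeded Actn2, which is shared by both fibre types, by 3.30. Among fast and slow pairs the difference was smaller for the inhibitory troponins Tnni2 and Tnni1 (1.04) and for the regulatory light chains Mylpf and Myl2 (0.73). A margin also depends on the level of the lower arrays, which differed within pairs in either direction. In casein replicate 1 it was 6.10 for Myh2 and 44.4 for Myh7, but 185.5 for Tnni2 and 18.2 for Tnni1. The pairs are therefore a description and were not tested. By part of the fibre, thick filament genes had a median margin of 5.98 log2, Z-disc and titin genes 3.85, calcium-handling genes 3.55, thin filament genes 3.25 and genes of energy and oxygen 3.14.

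High-fat diet replicate 2 held much smaller differences from the casein diet. It lay above both casein arrays for 14 of the 37 genes, where 33.0% of all genes did so, a share close to that of the muscle genes. For 3 genes it did so by over 0.5 log2, namely Myh1 (1.45), Ttn (1.18) and Tnnc2 (0.80), which were also 3 of the 4 genes with the largest margins in high-fat replicate 1. Myh4, the other of these 4, had 0.48. Myh1 and Myh4 were under 33.9 in both casein arrays and in high-fat replicate 2, and Ttn and Tnnc2 in both casein arrays. The sizes of these gaps therefore have no firm scale. In the opposite direction, high-fat replicate 2 was below the higher casein array by more than 0.5 log2 for Ldb3 (-1.25), Mybpc1 (-1.16), Smpx (-0.98), Ryr1 (-0.78), Mybpc2 (-0.57) and Trdn (-0.54). The median of the 37 genes against the mean of the casein arrays was 0.04 log2. A second probe set of Myh1 gave 6.77 and 9.71 on the casein diet, 4163 in high-fat replicate 1 and 36.8 in high-fat replicate 2, close to the first. The next 3 brightest probe sets of Ttn gave 13.1, 16.5 and 17.4 in high-fat replicate 2, which were 0.02, 0.47 and 0.30 log2 over the higher casein array, smaller gaps than that of the first.

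**Figure D3:**
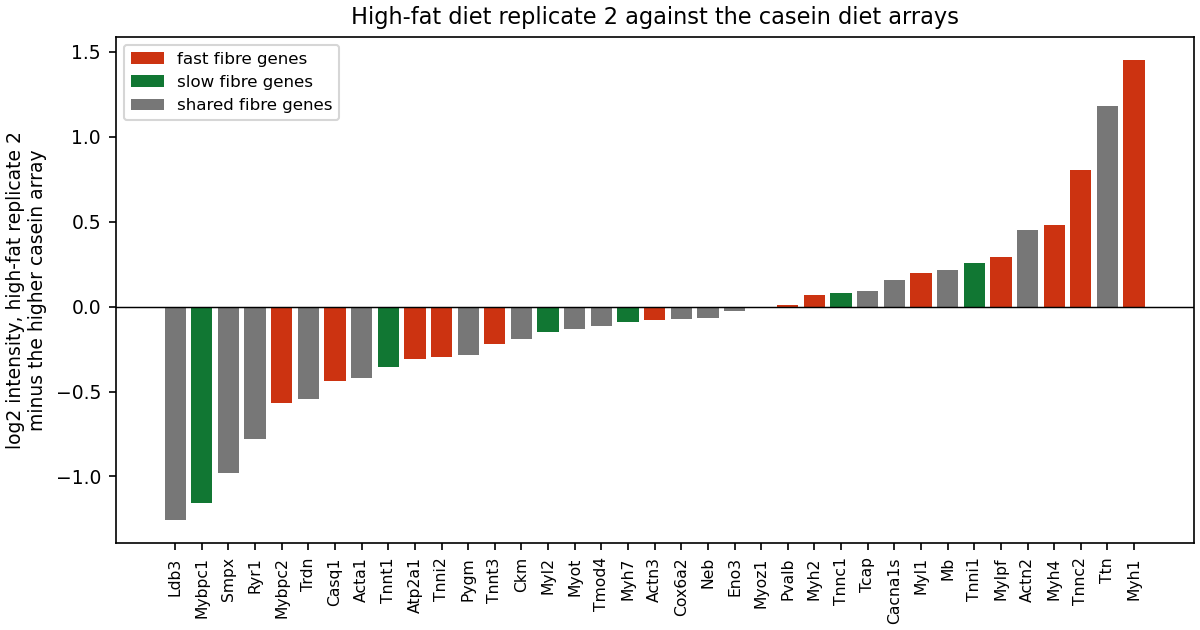
High-fat diet replicate 2 minus the higher of the 2 casein diet arrays (vertical axis, log2 intensity) for each of the 37 muscle fibre genes, ordered by value and coloured by fibre class. The bars run from -1.25 for Ldb3 to 1.45 for Myh1, with 14 above 0.

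Compared by diet, no muscle fibre gene passed limma's test with Benjamini-Hochberg adjustment at 0.05 (0 of 30 tested, smallest adjusted p = 0.863), as no gene did among all 12797 tested (0%). At an unadjusted p under 0.05 there were 0 muscle fibre genes, where 4.97% of all tested genes were found. All 37 log2 differences, high-fat minus casein, were above 0, from 0.22 for Ldb3 to 5.35 for Myh1, with a median of 2.003 against -0.0009 over all genes. Among the 30 tested genes the median was 1.998 against -0.01. All 30 95% intervals of the tested genes included 0. Myh1 differed by 5.35 (SE 2.60, 95% interval -2.01 to 12.72), Ttn by 4.55 (SE 2.37, -2.17 to 11.28) and Acta1 by 1.70 (SE 1.33, -2.09 to 5.48). Actn2, where the interval was -0.73 to 3.90, had 1.58 (SE 0.82). Both high-fat arrays lay above both casein arrays for 14 of 37 genes, where 17.0% of all genes did so, and for 12 of the 30 tested, where 16.6% did so. This count follows from replicate 2 alone, since replicate 1 was highest throughout. With 2 arrays against 2, an exact two-sided permutation test cannot go below p = 0.333. Nothing says that arrays of a diet are separate animals, so limma's p-values measure only the spread between these samples.

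Without high-fat replicate 1 the median difference over the 37 genes was 0.04 log2, 23 genes kept a value above 0 and 14 turned below 0, and 7 differed by over 0.5 log2 in either direction. Without it Myh1 differed by 1.79, Ttn by 1.29 and Tnnc2 by 0.83, while Ckm, Tnnt3 and Neb differed by 0.03, 0.0011 and -0.0065. Leaving out high-fat replicate 2 instead gave a median of 4.22, with 8.92 for Myh1 and 1.46 for Ldb3. An unadjusted p under 0.05 in limma was found for 6 of the 30 tested genes without replicate 1, where 3.37% of all tested genes had one. Without replicate 2 it was found for 30 of the 30, where 4.49% of all had one. In both cases 0 of all genes passed the adjusted test. In both cases 1 array stood for the high-fat diet and was assumed to vary like the casein arrays. The 6 genes found without replicate 1 went both ways. Myh1, Ttn, Tnnc2 and Myh4 (0.49) were higher on the high-fat diet, and Ldb3 (-1.02) and Ryr1 (-0.67) were lower. The filter used all 4 arrays, and 21 of the 30 would have passed it without replicate 1. Myh1 and Myh4 were under 33.9 in every remaining array, so they were tested only because of replicate 1. Ttn and Tnnc2 were under it in both casein arrays, and Ryr1 (23.9) in high-fat replicate 2. The counts of unadjusted p-values without replicate 1 and without replicate 2 are descriptions and no tests. The list was drawn up with earlier results known, and replicate 1 was the highest array for every measured gene on it.

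**Figure D4:**
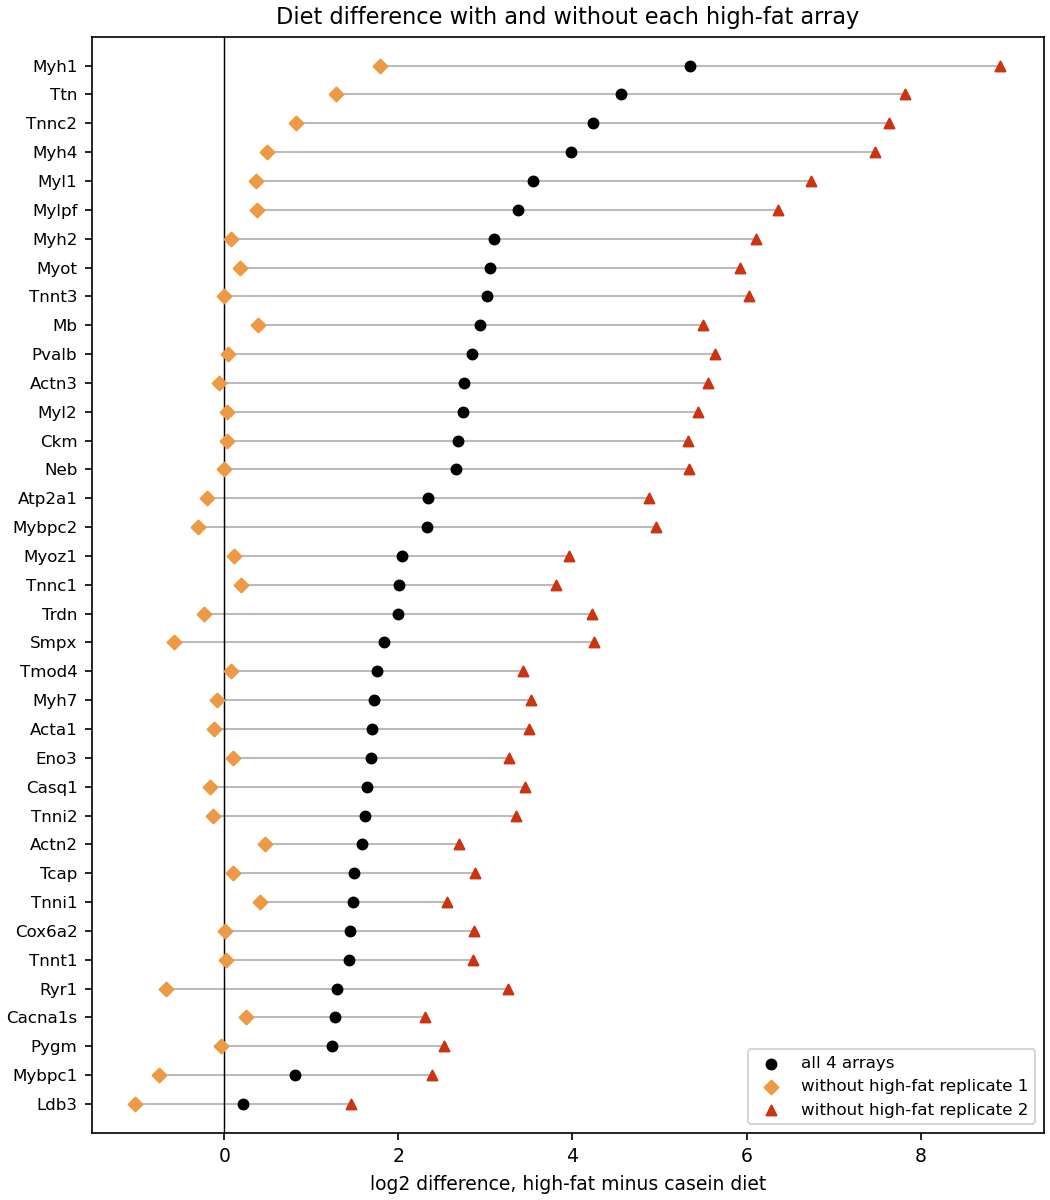
Log2 difference between the high-fat and casein diets (horizontal axis) for each of the 37 muscle fibre genes with all 4 arrays (circles), without high-fat diet replicate 1 (diamonds) and without high-fat diet replicate 2 (triangles). The diamonds scatter around 0, from -1.02 to 1.79, and the triangles reach from 1.46 to 8.92.

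Further probe sets were read for 12 genes, so that the 37 genes had 61 in all. Of the 24 further probe sets, 16 had a margin of 1 log2 or more in high-fat replicate 1. Of the 8 that did not, 7 were below 33.9 on every array, among them dim probe sets of Ttn, Trdn, Tnni2, Myh1 and Mb. The remaining one, of Mybpc1, gave 61.1 and 85.0 on the casein diet, 149.7 in high-fat replicate 1 and 40.3 in high-fat replicate 2, so it was also highest in that array. The dim probe set of Mb was flat, with 30.8 and 26.5 on the casein diet, 25.2 in high-fat replicate 1 and 30.4 in high-fat replicate 2, and was the only one whose diet difference was below 0.

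Other genes of the muscle fibre, listed by name apart from the 37, shared the high array in part. Of 49 such genes on the array 25 had a margin of 1 log2 or more in high-fat replicate 1, against 0.770% of all 18193 genes. Among the 28 that passed the filter, 10 had it, against 0.602% of all filtered genes. Cmya5, a gene of a striated-muscle anchoring protein, had 444.5 in high-fat replicate 1 against 27.9, 43.4 and 45.7, and Srl, the gene of the sarcoplasmic reticulum protein sarcalumenin, 347.3 in high-fat replicate 1 against 22.2, 27.7 and 30.5. Pgam2, the muscle phosphoglycerate mutase, had 426.8 in high-fat replicate 1 against 40.8, 35.1 and 38.6, and Cox8b, a cytochrome oxidase subunit of muscle and brown fat, 284.5 in high-fat replicate 1 against 33.1, 38.9 and 36.5. Among genes too dim for the filter, named after their values were seen, the M-band gene Myom2 had 494.2 in high-fat replicate 1 against 12.4, 10.7 and 11.7 and the sarcomere assembly gene Klhl41 136.5 in high-fat replicate 1 against 5.08, 5.29 and 4.98. In this list 0 of 28 tested genes passed limma's adjusted test, and 2 had an unadjusted p under 0.05, where 4.97% of all tested genes had one. Both were lower on the high-fat diet and are named after their values were seen. Tpm1, a tropomyosin gene of smooth muscle as well, differed by -0.64 log2, and Sypl2, a gene of the muscle triad junction, by -0.38, and both signs turned with the mean of each gene's probe sets.

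Genes of muscle formation stood out less. Of 17 myogenic regulators and satellite cell genes 3 had the margin, all below the filter. Named after their values were seen, Vgll2, a cofactor in skeletal muscle, had 64.6 in high-fat replicate 1 against 15.1, 13.5 and 13.9 and Myf6, the myogenic factor of mature fibres, 29.1 in high-fat replicate 1 against 7.40, 6.20 and 5.82. Pax7, the defining marker of satellite cells, was at 12.7 and 13.8 on the casein diet, 11.4 in high-fat replicate 1 and 12.3 in high-fat replicate 2. Mef2c, a myogenic factor that many other cells also express, had 800.2 in high-fat replicate 1 against 380.8, 530.8 and 505.2. Of 8 developmental muscle genes 3 had the margin, with Actc1, the cardiac and fetal actin, at 76.7 in high-fat replicate 1 against 30.6, 32.7 and 25.5. Tnnt2, the cardiac and fetal troponin T, had 151.4 in high-fat replicate 1 against 64.0, 76.8 and 70.5. The embryonic myosin gene Myh3, named after its values were seen, had 161.9 in high-fat replicate 1 against 16.3, 13.6 and 12.4. Of 10 neuromuscular junction genes and 12 regulators of the fast and slow programmes on the array, 0 had the margin. Nor did any of 11 cardiac markers, among which Myl3, a ventricular and slow light chain, had 62.9 in high-fat replicate 1 against 36.7, 42.1 and 43.2, and Tnni3, cardiac troponin I, 63.6 in high-fat replicate 1 against 52.5, 57.2 and 55.0. Myh6, the defining myosin of the atrium, was at 9.12 and 8.07 on the casein diet, 8.99 in high-fat replicate 1 and 10.6 in high-fat replicate 2.

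Markers of other tissues were summed in the same arrays, and of these lists the adipocyte list was the only one with a gene past the margin. Over 12 smooth muscle markers, the summed intensity was 37446 and 42921 on the casein diet, 27922 in high-fat replicate 1 and 24577 in high-fat replicate 2, so smooth muscle genes were not highest where skeletal muscle genes were. Tendon and fibroblast markers (9) summed to 19146 and 21708 on the casein diet, 22628 in high-fat replicate 1 and 19524 in high-fat replicate 2, and nerve and Schwann cell markers (5) to 1187 and 1234 on the casein diet, 1105 in high-fat replicate 1 and 1191 in high-fat replicate 2. The endothelium markers (8) summed to 1223 and 1664 on the casein diet, 2147 in high-fat replicate 1 and 2267 in high-fat replicate 2. Adipocyte markers (8) summed to 1944 and 1975 on the casein diet, 9041 in high-fat replicate 1 and 6473 in high-fat replicate 2, and 1 of them had the margin. This was Car3, a carbonic anhydrase of both fat and skeletal muscle, with 7414 in high-fat replicate 1 against 993.7, 841.5 and 3467. The other 7 adipocyte markers summed to 950.3 and 1134 on the casein diet, 1628 in high-fat replicate 1 and 3006 in high-fat replicate 2, so without Car3 replicate 2 was the higher. Adipoq and Retn, adipokine genes named after their values were seen, were lowest in high-fat replicate 1. Adipoq had 33.1 in high-fat replicate 1 against 106.9, 91.4 and 348.1, and Retn 83.8 against 104.0, 109.6 and 345.9. Others of the list, also named after their values were seen, went differently. Fabp4 had 1292 in high-fat replicate 1 against 489.6, 696.9 and 2026. Lipe had 71.7 in high-fat replicate 1 against 77.7, 71.7 and 75.6, and Plin4 115.9 against 113.5, 131.4 and 132.7. Cidec and Lep were too dim for the filter. Mesothelium markers (7) summed to 6102 and 1710.4 on the casein diet, 735.8 in high-fat replicate 1 and 1283 in high-fat replicate 2, and gastric mucosa markers (9) to 65057 and 9960.1 on the casein diet, 400.3 in high-fat replicate 1 and 410.2 in high-fat replicate 2. These last 2 were highest in casein replicate 1, which had none of the high muscle values. The part of any of these tissues in the muscle result was not tested.

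**Figure D5:**
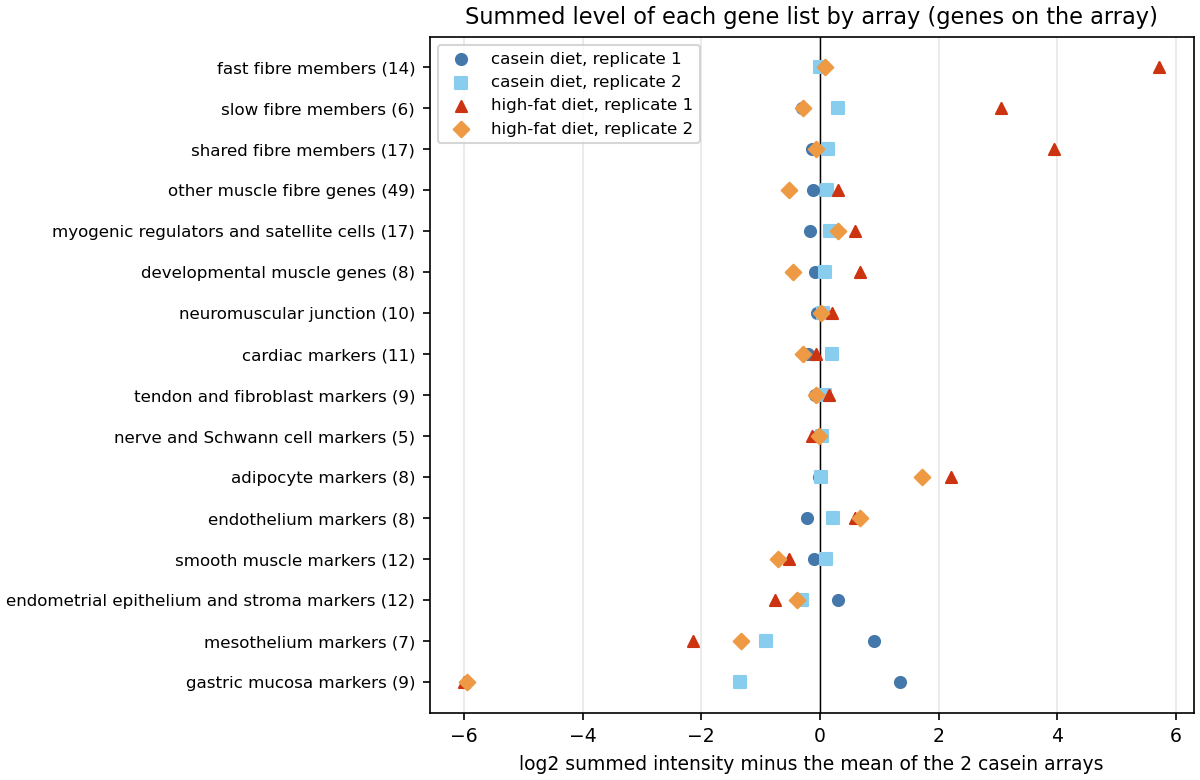
Summed intensity of each gene list in each array, as log2 relative to the mean of the 2 casein diet arrays (horizontal axis), with the number of genes on the array in brackets. The 3 muscle fibre classes stand apart in high-fat diet replicate 1 (fast 5.71, slow 3.05, shared 3.94), and smooth muscle, tendon, nerve and cardiac markers do not. Adipocyte markers are high and mesothelium and gastric mucosa markers low in both high-fat arrays (2.21, -2.13 and -5.99 in replicate 1). Car3, which is also a gene of skeletal muscle, makes up 7414 of the adipocyte sum of 9041 in replicate 1. Without Car3 the adipocyte sums are 950.3 and 1134 on the casein diet, 1628 in high-fat replicate 1 and 3006 in high-fat replicate 2.

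The labelled tissue was checked on markers of the endometrium. Esr1, the estrogen receptor gene, had 3799.7 and 3775 on the casein diet, 3319 in high-fat replicate 1 and 4046 in high-fat replicate 2, and the uterine patterning gene Hoxa10 had 647.2 and 1547 on the casein diet, 1886 in high-fat replicate 1 and 1521 in high-fat replicate 2. Hoxa11 and Hand2, genes of the uterine stroma, had 404.5 and 510.0 in high-fat replicate 1, 426.6 and 640.6 in replicate 2, 166.1 and 254.1 in casein replicate 1, and 362.7 and 466.7 in casein replicate 2. These 4 are genes of the receptor, stroma and patterning. Of all 12 endometrial markers 8 were lowest in high-fat replicate 1, among them all 6 epithelial markers. Of these, named after their values were seen, the adhesion gene Epcam had 813.1 in high-fat replicate 1 against 2059, 1961 and 1953, and the keratin gene Krt8 1079.6 in high-fat replicate 1 against 10009.5, 2729 and 1796. The summed intensity of the 12 markers was 25560.0 and 16899 on the casein diet, 12227 in high-fat replicate 1 and 15971 in high-fat replicate 2, lowest in that array. Hoxa10, Hoxa11 and Hand2 were lowest in casein replicate 1. The median intensity over all probe sets was 55.1 to 56.5 in the 4 arrays. The 3′ probe set of Gapdh exceeded its 5′ probe set, a guide to how intact the RNA was, by 0.98 to 1.19 log2, highest in high-fat replicate 1. For Actb the same measure was 1.40 to 1.44 log2, lowest in high-fat replicate 1, so the 2 controls differed in order. The part of RNA quality in the muscle result was not tested.

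Of the 77 filtered genes with the margin in high-fat replicate 1, 30 were among the 37, 10 on the list of other muscle fibre genes, 2 were Actc1 and Car3, and 35 were on no list. The 8 largest of these 35 included genes that are not muscle genes. Prl8a2, a prolactin-family gene of the decidua, had 12.6 and 9.95 on the casein diet, 3877 in high-fat replicate 1 and 104.6 in high-fat replicate 2, and its margin of 5.21 log2 ranked among those of the muscle fibre genes. Inhba, the activin subunit gene, had 1679 in high-fat replicate 1 against 251.7, 252.1 and 203.8, Tfpi2, a protease inhibitor gene, 882.0 in high-fat replicate 1 against 83.1, 102.4 and 139.1, and Tnfrsf11b, the gene of the decoy receptor osteoprotegerin, 278.5 in high-fat replicate 1 against 36.3, 46.3 and 38.2. S100a8, a calprotectin subunit of neutrophils, had 3477 in high-fat replicate 1 against 464.5, 849.4 and 687.7. Hjv, the gene of hemojuvelin in liver and skeletal muscle, had 153.0 in high-fat replicate 1 against 21.2, 22.05 and 18.5, Lmcd1, a LIM-domain gene of striated muscle, 601.0 in high-fat replicate 1 against 80.4, 116.1 and 107.9, and the unnamed transcript 4930486L24Rik 397.8 in high-fat replicate 1 against 49.1, 48.1 and 49.4. High-fat replicate 1 therefore differed from the other arrays in more than muscle genes.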

How the data were processed

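RNA from mouse endometriotic lesions was measured on 4 Affymetrix arrays, 2 per diet, grouped by sample title. The deposited values are probe set intensities on a linear scale, with array medians of 55.1 to 56.5, whose normalisation by the authors is known only from the tools named. GCOS and RMA are named by the submitters' processing notes, without versions or order. How RMA output came to be linear is not given in the sources used here. Detection calls, scan dates and slides were not used here. Here log2 was taken with no pseudocount.

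Probe sets were named by the platform annotation, and 34945 with 1 symbol (apart from 64 controls) were used. The brightest by mean log2 stood for each of 18193 genes, and 12797 genes entered the test, those whose mean reached 33.9, the 40th percentile of probe sets. High-fat minus casein was tested with lmFit and eBayes of limma 3.58.1 under R 4.3.3 (two-sided). P-values were adjusted by Benjamini-Hochberg across these genes, with 3.80 total degrees of freedom. The fit was checked on simulated data. Margins, counts and medians are descriptions. The members, lists and rules were chosen with earlier results of these data known. The rule for naming other genes allowed up to 4 per list with the largest margins among tested genes. It was used for 6 lists, with 1 to 4 genes each, a number set after the values were seen, and the 8 largest on no list were added. Named after their values were seen were also Myom2, Klhl41, Myh3, Vgll2, Myf6, Myh6, Pax7, Tpm1, Sypl2, Adipoq, Retn, Fabp4, Lipe, Plin4, Cidec, Lep, Epcam and Krt8. Alternatives were the replicate block, quantile normalisation, median centring, pseudocounts of 1 and 16, other filters and choices of probe set, a trended prior, a threshold of 0.10 and leaving out each array. Setting high-fat replicate 2 against the higher casein array for every probe set was chosen after seeing the data. Promoter sequences are RefSeq's (GRCm38.p6), and no build is named for the arrays. Figures were drawn with matplotlib 3.10.9.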

Additional observations from a re-analysis of the deposited data

Results flagged for a closer look

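A probe set annotated to both Myh7 and Myh6, and therefore left out of the comparisons, also carried the pattern. Its intensity was 33.5 and 26.5 on the casein diet, 208.1 in high-fat diet replicate 1 and 28.8 in high-fat diet replicate 2. It was listed because data outside the main measurement stood above the level in the casein diet arrays. A second probe set of the same pair was dim, at 7.01 in casein replicate 1, 6.56 in casein replicate 2, 7.02 in high-fat replicate 1 and 7.66 in high-fat replicate 2.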

How the results depend on the processing

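In all alternatives tried, 0 muscle fibre genes passed limma's adjusted test. Over all genes 0 passed as well, except without casein diet replicate 2, where 17 did, so the range when 1 array was left out was 0 to 17. With the replicate number as a block, 0 genes passed and the median difference of the tested muscle fibre genes was 1.998. Same-numbered arrays did not deviate together (r = -0.02 across genes, with only 2 pairs), so the number was not taken as a pairing. The count of tested muscle fibre genes with every high-fat array above every casein array lay between 12 and 30 on leaving out single arrays. It was 20 of 30 without casein replicate 2 and 30 of 30 without high-fat replicate 2. The latter was fixed in advance, since only high-fat replicate 1 was left. That array was the highest for every measured gene of the list. The count over all genes also rose when any single array was left out, so these counts are not compared with the main one. With a filter at the 60th percentile the count was 2 of the 14 tested. A margin of 1 log2 or more in high-fat replicate 1 was reached by 14 of 14 tested muscle fibre genes with that filter. It was reached by 20 of 20 with the dimmest probe set of each gene and by 37 of 37 with no filter. These counts differed because the number of genes tested differed. The median difference was 1.63 with a pseudocount of 16, 4.02 without high-fat replicate 2 and 0.01 without high-fat replicate 1.

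Without high-fat diet replicate 1, 14 of the 37 differences were below 0. Without casein diet replicate 2 that of Ldb3 was below 0 as well. When 1 array was left out, the ranges were -1.02 to 1.46 for Ldb3, -0.12 to 3.51 for Acta1, -0.0552 to 5.56 for Actn3, -0.20 to 4.89 for Atp2a1, -0.17 to 3.45 for Casq1, -0.75 to 2.39 for Mybpc1, -0.30 to 4.96 for Mybpc2, -0.0871 to 3.53 for Myh7, -0.13 to 3.36 for Tnni2, -0.0065 to 5.34 for Neb, -0.0397 to 2.52 for Pygm, -0.67 to 3.26 for Ryr1, -0.23 to 4.22 for Trdn and -0.58 to 4.25 for Smpx. Outside the list they were -0.31 to 1.28 for Actc1, -0.19 to 0.10 for Esr1, -0.22 to 2.82 for Hjv, -0.31 to 2.74 for Inhba, -0.10 to 2.76 for Tnfrsf11b, -0.0584 to 4.72 for Klhl41, -0.26 to 3.44 for Myh3, -0.0375 to 2.18 for Vgll2, -0.22 to 2.10 for Myf6, -1.58 to 1.82 for Adipoq and -0.35 to 1.70 for Retn. With the dimmest probe set, the log2 difference of Inhba was -0.0418, Mb and Myom2 differed by -0.0486 and -0.11, and Pax7 by 0.20, or 0.0209 with the mean of its probe sets. The log2 difference of Tpm1 was 1.12 with the dimmest and 0.0090 with the mean of its probe sets, and the log2 difference of Sypl2 was 0.13 with the mean. The cause was not tested. The number of arrays and the low signal of dim probe sets limit precision.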
